A study of Mus musculus with 18 samples.

Results

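The genes described here are 20 that encode cytosolic aminoacyl-tRNA synthetases or their subunits and 16 of the ATF4 amino acid response. They are 36 genes among the 54446 of the deposited table. A gene was a member when its Ensembl gene identifier, without the version, had one of the 36 listed mouse symbols, and the rule itself uses no measured value, although the symbols were listed with earlier results of these data known. The 36 symbols matched 37 rows, since Ddit3 has 2 identifiers, of which ENSMUSG00000116429.1 was at 0 in every library and ENSMUSG00000025408.15 is used below. Mouse eosinophils (C57BL/6 per the labels, from the peritoneal cavity of animals with the Il5Tg transgene per the study's methods) spent 18 h beside apoptotic cells (ACs), 5 to each eosinophil, and were purified again with Siglec-F beads. Dexamethasone-treated thymocytes from wild-type mice served as ACs. The Type 1 experiment had a group with ACs only (the ACs group) and groups that also received E. coli, IFN-γ or both stimuli. By the paper's account IFN-γ came before E. coli in the group with both. The IL-4 experiment had its own ACs group and a group that also received IL-4, and each of the 6 groups held 3 libraries. Every stimulated group below thus also contained ACs, and each stimulus was compared with the ACs libraries of its own experiment. Eosinophils cultured without ACs are not analysed here, and the labels do not say whether the libraries of a group came from separate mice, so the p-values measure only the spread between these libraries.

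Aminoacyl-tRNA synthetases load each tRNA with its amino acid and so supply the ribosome. When an amino acid runs short, uncharged tRNA activates the kinase GCN2, which phosphorylates the initiation factor eIF2. General translation then slows while that of the ATF4 mRNA increases. ATF4 pairs with C/EBP proteins, binds C/EBP-ATF response elements and raises genes for amino acid synthesis and uptake and for many of the synthetases. Stress in the endoplasmic reticulum and oxidative stress reach the same factor through other kinases. Wars, the tryptophanyl-tRNA synthetase, is also known as an interferon-inducible gene in many cell types.

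Of the 36 genes, 10 passed the test in at least 1 of the 4 comparisons with ACs. The share of all genes is given below for each comparison, and was not computed over the 4 together. Wars was the synthetase that moved most, with 4.35 times its mean ACs level with IFN-γ and 9 times with both stimuli. The sum of the other 19 synthetases stayed between 2496 and 3135 normalized counts in all 12 Type 1 libraries. On the ATF4 side, Slc3a2 rose with each of the 3 Type 1 stimuli, Sesn2 with both IFN-γ conditions, Psat1 and Ddit3 with IFN-γ alone, and Atf4 itself with both stimuli. Shmt2 fell in both IFN-γ conditions. With IL-4 no member passed the test.

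A normalized count is the number of reads counted on a gene divided by a size factor of the library, and levels are compared below within a gene only. Fold changes are differences of log2(normalized count + 1), so they understate the change of genes with few reads. A gene passed the test at a Benjamini-Hochberg adjusted p under 0.05 over all genes and a change of at least 1.5-fold in limma. Reads on genes ranged from 2216917 to 5078760 per library in the Type 1 experiment. In the IL-4 experiment they ranged from 5294244 to 7782072, apart from replicate 3 of each group with 779421 and 849705, where 1 read is worth 5.36 and 5.14 normalized counts and the limit that a count of 0 allows, 3 reads, is 16.08 and 15.42. With a mean of at least 10 required, 32 members were tested in the Type 1 experiment, and Chac1, Trib3, Phgdh and Psph were not. Among the IL-4 experiment libraries 33 were tested, without Chac1, Phgdh and Slc7a5.

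The labelled cell type was checked against its markers. Of 5 eosinophil markers, Ccr3, Siglecf, Il5ra and Prg2 were present in all libraries, and Epx, the eosinophil peroxidase gene, was at 0 to 3.27 in the Type 1 libraries and at most 25.7 in the others. The summed level of the 5 was 6845 to 7534 with ACs alone or E. coli in the Type 1 experiment, 4493 to 5301 with IFN-γ and 6104 to 7333 with both stimuli. That sum was mostly Ccr3 and Siglecf, which moved in opposite directions with both stimuli. Ccr3 was at 3211 to 3385 with ACs and 4005 to 4934 with both, and Siglecf at 3169 to 3367 and 1728 to 2020. The 6 macrophage markers (Csf1r, Adgre1, Marco, Timd4, C1qa, C1qb) summed to 6410 to 7474 with ACs, 4649 to 5274 with E. coli, 10250 to 13969 with IFN-γ and 6318 to 6697 with both stimuli, none of them at 0. These markers did not move together, as with both stimuli 2 of the 6 passed as higher and 2 as lower. Marco was at 620 to 873 with ACs and 1236 to 1259 with both, and C1qb at 2252 to 2821 and 942 to 1252. Adgre1 was at 1698 to 1874 and 2717 to 3140, and bulk RNA cannot tell whether its reads came from macrophages or from eosinophils. The 9 markers of thymocytes, the cells given as ACs, summed to 31.7 to 150 in the Type 1 experiment and 16.1 to 56.5 in the other, with Rag1 at 0 in both groups given E. coli. Neutrophil markers (5 genes) summed to 489 to 554 with ACs, 180 to 250 with either stimulus alone and 573 to 676 with both, B cell markers (3 genes) to at most 72.8 and mast cell markers (3 genes) to at most 55 in any library. The neutrophil sum was nearly all 1 gene, Mmp8, at 485 to 548 with ACs and 179 to 228 with IFN-γ. Ly6g went the other way, at 2.44 to 4.69 with ACs and 12.6 to 34.9 with IFN-γ, and Camp, Ngp and Ltf were at 0 to 13.4 in the Type 1 libraries. With IL-4 the eosinophil markers summed to 5556 to 6346 (5726 to 6773 in its ACs group), the macrophage markers to 8898 to 14500 (11185 to 13543) and the neutrophil markers to 73 to 82.2 (287 to 407). The part of these cells in the results below was not tested, and in bulk RNA fewer cells of a type cannot be told apart from less RNA per cell. Irf1 and Gbp2, taken to check the IFN-γ response, were higher in both IFN-γ groups, by log2 2.49 to 3.73. Il1b and Tnfaip3, taken for the response to bacteria, were higher with E. coli (log2 3.06 and 0.77). Nfkbia, taken for the same, did not pass, at 3877 to 4341 with E. coli and 3478 to 3559 with ACs. Tnfaip3 was not particular to E. coli, at 272 to 334 with IFN-γ alone and 172 to 222 with ACs.

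Windows around the transcription start, 250 bases before to 50 after it, were taken from RefSeq (GRCm38.p6) and matched 28 of the 36 members, all but Cars, Hars, Lars, Nars, Rars, Vars, Wars and Slc7a5. The C/EBP-ATF response element was searched as TGATGNAA on both strands (TTNCATCA on the other). It was found for 9 of the 28 members, namely Asns, Chac1, Trib3, Pck2, Aars, Gars, Iars, Tars and Yars, and in 4.51% of the 27025 genes with a window. The sites that lie wholly upstream of the RefSeq start are shown because this element is the ATF4 site by which such genes are usually recognised. Each stretch is written 5′ to 3′ on the strand of its gene, with 35 bases on either side as far as the start allows and the element in capitals. They lie at chr6:7693210-7693267 for Asns and chr15:11399659-11399708 for Tars, both on the minus strand, and on the plus strand at chr2:119351014-119351091 for Chac1, chr6:55037936-55038000 for Gars and chr14:55540128-55540205 for Pck2.
Asns: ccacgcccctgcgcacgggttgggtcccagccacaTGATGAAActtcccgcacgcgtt
Chac1: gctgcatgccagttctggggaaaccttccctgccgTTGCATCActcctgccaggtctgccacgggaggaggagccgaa
Gars: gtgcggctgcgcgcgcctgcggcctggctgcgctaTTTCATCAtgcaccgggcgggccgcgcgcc
Tars: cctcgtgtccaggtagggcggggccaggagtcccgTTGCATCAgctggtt
Pck2: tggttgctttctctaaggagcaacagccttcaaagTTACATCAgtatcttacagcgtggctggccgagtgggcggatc

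A pair of interferon motifs were searched in the same windows. The gamma-activated site, TTCNNNGAA, which reads the same on both strands, was found for 3 of the 28 members (Aars, Kars, Shmt2) and in 9.55% of all genes with a window. The interferon-stimulated response element, taken as GAAANNGAA on either strand, was found for Qars only among the members and in 9.76% of all genes. Aars is shown because both kinds of element stand upstream of its RefSeq start (chr8:111033695-111033797, plus strand), the response element first and the gamma-activated site second. The gene span given below begins earlier, at 111033144, so both sites lie inside that span. Shmt2, the member with the lowest log2 fold change, is shown for its gamma-activated site (chr10:127522456-127522534, minus strand).
Aars: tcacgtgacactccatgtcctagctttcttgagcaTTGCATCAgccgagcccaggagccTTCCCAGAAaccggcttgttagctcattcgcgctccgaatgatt
Shmt2: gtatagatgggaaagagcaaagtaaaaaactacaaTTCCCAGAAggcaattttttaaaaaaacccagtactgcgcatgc
A match to these letters is a description of the window, and binding of a factor was not measured.

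Wars (ENSMUSG00000021266.16, chromosome 12 of GRCm38 from 108860030 to 108894174, minus strand) had normalized counts of 100, 115 and 93 with ACs alone, a mean of 103 ± 11.5 (SD, n = 3). With E. coli the libraries held 72.8, 73.6 and 92.4, each below every ACs library, but the difference did not pass the test (log2 -0.37, 95% interval -0.73 to -0.01, adjusted p = 0.18). With IFN-γ they held 429, 449 and 464, and with both stimuli 1100, 986 and 688, so that each IFN-γ library stood above all 6 libraries without IFN-γ, and each library with both stimuli above those with IFN-γ alone. The log2 fold changes over ACs were 2.12 with IFN-γ (SE 0.17, adjusted p = 2e-08) and 3.14 with both stimuli (SE 0.17, adjusted p = 5e-11). Across the libraries of the IL-4 experiment Wars was at 60.2, 78.6 and 75.1 with ACs and 55.6, 45.8 and 25.7 with IL-4. Those groups did not overlap, the lowest value being that of a shallow library, and the difference did not pass the test (log2 -0.80, 95% interval -1.52 to -0.07, adjusted p = 0.48). Wdr25 overlaps Wars on the opposite strand and was at 3.35 to 31.9 in the Type 1 libraries, and the sources used here do not say whether counting used strand.

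**Figure D1:**
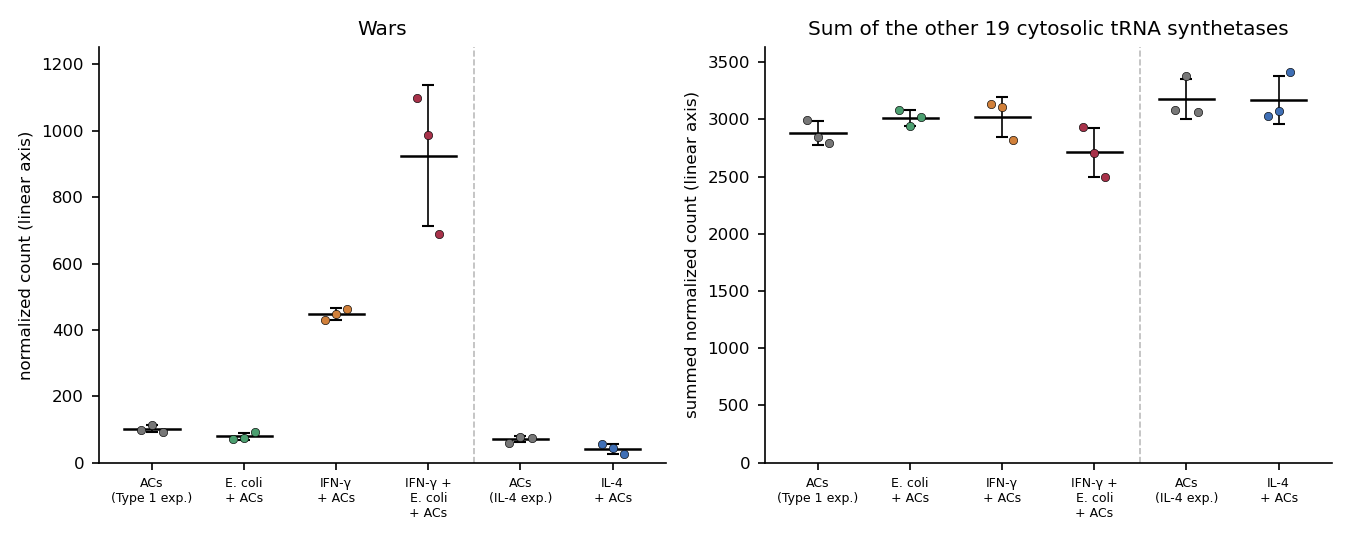
Normalized counts of Wars (left) and summed normalized counts of the other 19 cytosolic synthetases (right), on linear axes that start at 0. Points are libraries, horizontal lines group means and bars 1 SD (n = 3), and the dashed line separates the experiments. Wars lay between 429 and 464 with IFN-γ and between 688 and 1100 with both stimuli, whereas the sum of the others lay between 2496 and 3413 in all libraries.

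The other 19 synthetases were present in all groups, and their sum varied little. Their summed normalized count was 2879 ± 106 (SD, n = 3) with ACs, 3013 ± 70.7 with E. coli, 3021 ± 173 with IFN-γ and 2711 ± 217 with both stimuli, and in the IL-4 experiment 3176 ± 176 with ACs and 3171 ± 211 with IL-4, each with n = 3. Their log2 fold changes ran from -0.34 to 0.35 with E. coli (median 0.12, against 0.00 over all genes tested), from -0.53 to 0.75 with IFN-γ (median 0.05, against 0.00), from -0.76 to 0.57 with both (median -0.16, against -0.05) and from -0.61 to 0.48 with IL-4 (median 0.07, against -0.01). Of these 19, Aars passed the test as higher with IFN-γ and Vars as lower with both stimuli, and no other passed in any of the 4 comparisons with ACs.

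Aars, the alanyl-tRNA synthetase (chromosome 8, 111033144 to 111057664), was at 148, 107 and 104 with ACs and at 197, 220 and 185 with IFN-γ, without overlap (log2 0.75, SE 0.21, adjusted p = 0.011). It was at 189, 109 and 116 with E. coli and at 127, 156 and 135 with both stimuli, and these groups overlapped the ACs libraries. The levels in the IL-4 experiment, 72.9, 80.2 and 48.2 with ACs and 71.3, 60.1 and 72 with IL-4, overlapped as well. Without replicate 3 of the ACs libraries the IFN-γ difference was log2 0.66 with an adjusted p of 0.055.

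Vars, the valyl-tRNA synthetase (chromosome 17, 35000987 to 35016322), was at 193, 193 and 206 with ACs and at 114, 156 and 86.9 with both stimuli (log2 -0.76, SE 0.21, adjusted p = 0.0079). The library with 86.9 carried much of this difference, which was log2 -0.56 without it, under the 1.5-fold limit. Single stimuli gave 195, 152 and 168 with E. coli and 210, 175 and 125 with IFN-γ, and both groups overlapped the ACs libraries. In the IL-4 experiment Vars was at 279, 309 and 338 with ACs and 216, 231 and 303 with IL-4, which overlapped.

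Several synthetases had adjusted p under 0.05 but changes under 1.5-fold. Tars, the threonyl-tRNA synthetase, was at 165, 204 and 184 with ACs and at 111, 130 and 142 with IFN-γ (log2 -0.53, adjusted p = 0.02). With both stimuli it was at 181, 149 and 185, which overlapped the ACs libraries (log2 -0.10, adjusted p = 0.65). Dars and Rars had log2 differences of 0.51 and 0.57 with both stimuli (adjusted p = 0.02 and 0.024). Hars, the histidyl-tRNA synthetase, was at 112, 96.5 and 91.5 with E. coli, 64.6, 52.7 and 71.8 with IFN-γ and 54.2, 58.6 and 80 with both, and passed as lower than E. coli in either IFN-γ group (log2 -0.66 and -0.65, adjusted p = 0.032 for each). Both Hars calls were lost when any of the 3 E. coli libraries was left out, with adjusted p from 0.055 to 0.13, the call with IFN-γ also without IFN-γ replicate 1 or 2 (0.054 and 0.12), and the call with both stimuli also without replicate 1 or 2 of that group (0.11 and 0.068).

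**Figure D2:**
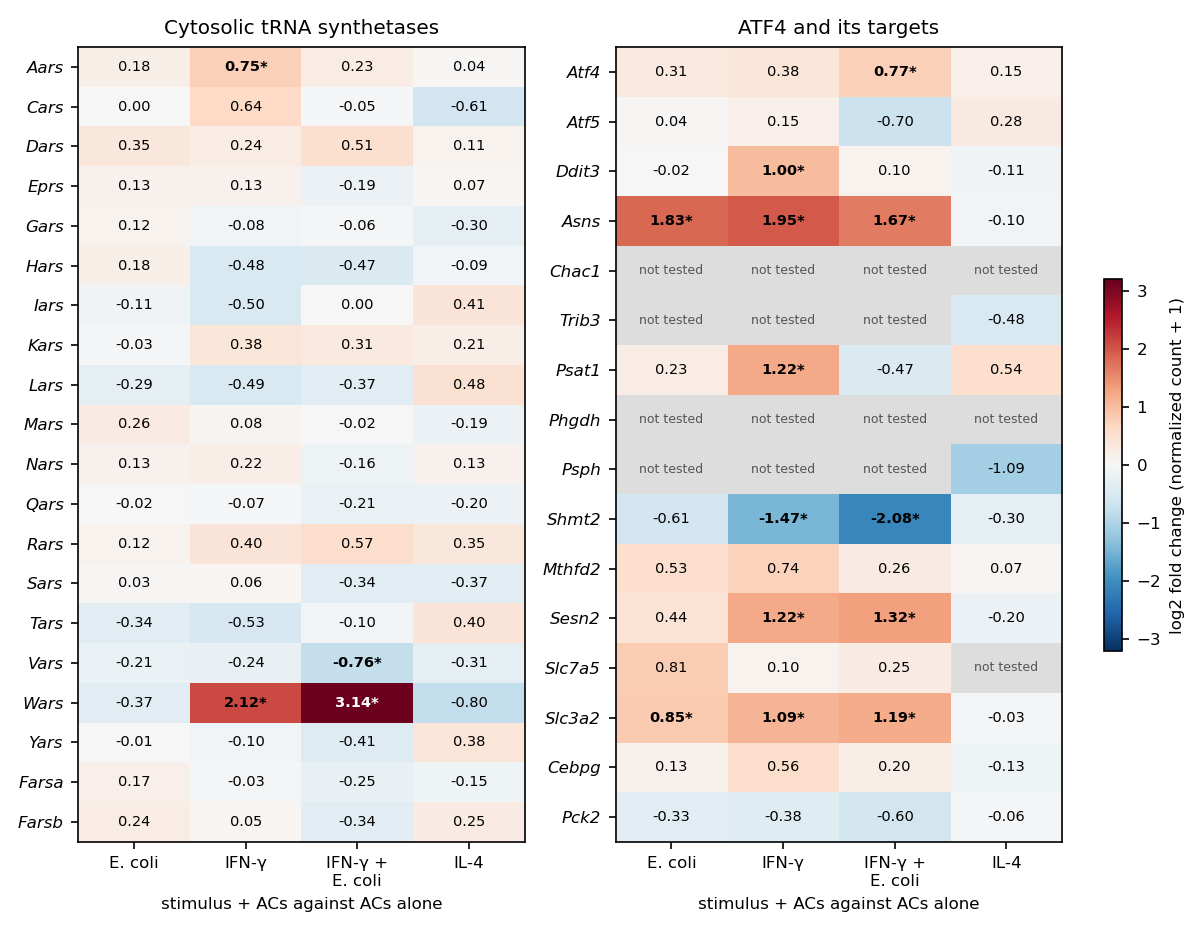
Log2 fold change of each of the 36 members, on normalized count + 1, with each stimulus + ACs against the ACs libraries of the same experiment (colour and number). An asterisk marks an adjusted p under 0.05 in limma with a change of at least 1.5-fold, and grey cells were not tested because the mean was under 10. The asterisks number 2 with E. coli, 8 with IFN-γ, 7 with both stimuli and 0 with IL-4.

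Counted over both groups of genes, 2 of the 32 tested members (6.25%) were higher and 0 lower with E. coli, where 5.05% of all 10166 genes tested were higher and 5.25% lower. With IFN-γ, 7 (21.9%) were higher and 1 (3.12%) lower, beside 11.4% and 9.96% of all genes. With both stimuli, 5 (15.6%) were higher and 2 (6.25%) lower, beside 14.7% and 17.2%, that is 1494 and 1746 genes, which became 1155 and 2200 when libraries were scaled to a common upper quartile. The median log2 fold change over the 32 was 0.13, 0.14 and -0.05 in this order, and 0.00, 0.00 and -0.05 over all genes. The shares with E. coli and with both stimuli were thus near those of all genes for higher calls. Asns was tested only through its stimulated groups, as it averaged 3.38 with ACs, and so could hardly have been called lower.

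Atf4, the transcription factor at the centre of the response (ENSMUSG00000042406.8, chromosome 15 from 80255184 to 80257541), was at 873, 973 and 997 with ACs. It was at 1096, 1292 and 1137 with E. coli, 1219, 1275 and 1211 with IFN-γ and 1721, 1538 and 1583 with both stimuli. Each stimulated library was above all ACs libraries, and those with both stimuli were above all others of this experiment. With both stimuli the difference passed the test (log2 0.77, SE 0.11, adjusted p = 1.3e-05). With IFN-γ it had an adjusted p of 0.012 but a log2 difference of 0.38, under 1.5-fold, and with E. coli log2 0.31 (adjusted p = 0.064). Across the libraries of the IL-4 experiment Atf4 was at 2478, 2202 and 2321 with ACs and at 2411, 2395 and 2997 with IL-4, which overlapped (log2 0.15, 95% interval -0.14 to 0.44). ATF4 is controlled largely through translation of its mRNA, which these libraries do not measure.

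The partner and downstream factors did not follow one pattern. Ddit3, which encodes CHOP (chromosome 10, 127290774 to 127296288), was at 45.5, 41.3 and 40 with ACs, 46.9, 32.7 and 46.6 with E. coli, 71.2, 98.6 and 88.2 with IFN-γ and 39.9, 44 and 52.4 with both stimuli. Only the 3 IFN-γ libraries stood above the ACs range as a group, and that difference passed the test (log2 1.00, SE 0.24, adjusted p = 0.004). With both stimuli Ddit3 was lower than with IFN-γ alone (log2 -0.90, SE 0.24, adjusted p = 0.011), which without IFN-γ replicate 2 was log2 -0.80 with an adjusted p of 0.059. Among the IL-4 experiment libraries Ddit3 was at 32.3, 67.7 and 42.9 with ACs and 29.6, 37.4 and 66.8 with IL-4, with overlap. Its 3′ end overlaps Mars on the opposite strand, which was at 50.4 to 113 in the Type 1 libraries and did not pass the test in any comparison with ACs.

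Atf5, a related factor whose mRNA is under the same translational control (chromosome 7, 44812256 to 44816658), was at 62.6, 59.1 and 66.9 with ACs, 68.7, 61.3 and 64.2 with E. coli, 56.7, 81.4 and 73.9 with IFN-γ and 67, 58.6 and 13.8 with both stimuli. All groups overlapped the ACs libraries, and the low value of 1 library with both stimuli rests on 10 reads. Without replicate 1 of the group with both stimuli the difference from ACs was log2 -1.10 with an adjusted p of 0.039. In the IL-4 experiment Atf5 was at 122, 96.5 and 80.4 with ACs and 114, 99.6 and 149 with IL-4. Nup62 and Il4i1 overlap it on the opposite strand, at 137 to 259 and 0 to 14.1 in the Type 1 libraries. Cebpg, a dimer partner of ATF4, was at 312 to 349 with ACs and 416 to 533 with IFN-γ, without overlap, a log2 difference of 0.56 with an adjusted p of 0.0055 that fell short of 1.5-fold.

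Of the pair of transporter genes, Slc3a2 passed the test with each Type 1 stimulus and Slc7a5 with none. Slc3a2, the heavy chain (CD98) that several amino acid transporters share (ENSMUSG00000010095.13, chromosome 19 from 8706882 to 8723369, minus strand), was at 2011, 1771 and 1700 with ACs. It rose to 3458, 3103 and 3284 with E. coli (log2 0.85, SE 0.11, adjusted p = 3.8e-05), to 4094, 4274 and 3343 with IFN-γ (log2 1.09, SE 0.11, adjusted p = 6.2e-07) and to 4495, 4180 and 3801 with both (log2 1.19, SE 0.11, adjusted p = 1.3e-07). All 9 stimulated libraries were above all 3 ACs libraries, and the stimulated groups overlapped one another except that E. coli stayed below both stimuli together. With IL-4 it was at 1820, 1755 and 2729 against 2036, 1912 and 2380 with ACs, and the groups overlapped (log2 -0.03, 95% interval -0.43 to 0.37). Slc7a5, the light chain LAT1, had 2 to 25 reads per Type 1 library, with a mean of 8.25 with ACs, 15.8 with E. coli, 8.87 with IFN-γ and 13.3 with both, and did not pass the test.

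Sesn2 encodes Sestrin2, a leucine sensor that restrains mTORC1 (ENSMUSG00000028893.8, chromosome 4 from 132492032 to 132510501, minus strand). It was at 104, 92.9 and 81.6 with ACs, 125, 123 and 130 with E. coli, 227, 193 and 232 with IFN-γ and 237, 314 and 167 with both. No stimulated library overlapped the ACs range, and the difference passed the test with IFN-γ (log2 1.22, SE 0.20, adjusted p = 0.00011) and with both stimuli (log2 1.32, SE 0.20, adjusted p = 2.9e-05) but not with E. coli (log2 0.44, adjusted p = 0.16). Against E. coli it was higher in both IFN-γ groups (log2 0.77 and 0.87, adjusted p = 0.0075 and 0.0031). Among the IL-4 experiment libraries the values were 228, 164 and 166 with ACs and 133, 195 and 159 with IL-4, which overlapped.

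Chac1 and Trib3, 2 further targets that act back on the stress response, had few reads. Chac1, which breaks down glutathione, was at 11.4, 13.1 and 4.89 with ACs, 7.53, 5.72 and 14.1 with E. coli, 7.91, 4.58 and 6.16 with IFN-γ and 0, 1.22 and 4.14 with both, the last standing for 0, 1 and 3 reads and lying below all ACs libraries. Its values in the IL-4 experiment were 1.5, 7.79 and 32.2 with ACs and 2.32, 3.16 and 5.14 with IL-4. Trib3, a pseudokinase that inhibits ATF4, was at 2.44, 4.69 and 6.52 with ACs, 6.7, 7.36 and 13.2 with E. coli, 18.5, 16.1 and 6.16 with IFN-γ and 8.55, 13.4 and 8.28 with both, so that the IFN-γ group alone overlapped the ACs libraries. Across the libraries of the IL-4 experiment it was at 36.9, 30.4 and 37.5 with ACs and 18.5, 19.5 and 41.1 with IL-4 (log2 -0.48, adjusted p = 0.73).

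Asns is the asparagine synthetase and a classical ATF4 target (ENSMUSG00000029752.12, chromosome 6 from 7675169 to 7693254, minus strand). Its response element in the stretch above stands just upstream of the RefSeq start, but inside the gene span given here. The gene rested on 1, 3 and 8 reads with ACs in the Type 1 experiment. These were normalized counts of 0.81, 2.82 and 6.52, against 14.2, 10.6 and 12.3 with E. coli, 21.1, 13.8 and 8.21 with IFN-γ and 8.55, 9.77 and 15.2 with both. All 9 stimulated libraries were above the ACs libraries, and the log2 differences of 1.83, 1.95 and 1.67 (SE 0.58 for each) passed the test with adjusted p of 0.043, 0.017 and 0.029. With a pseudocount of 5 they were 1.10, 1.21 and 0.98 (adjusted p = 0.05, 0.018 and 0.04). The E. coli call was lost there, with the replicate block (0.055) and with all genes tested (0.1), the last of which also ended the call with both stimuli (0.072). Without ACs replicate 1 the adjusted p was 0.19, 0.092 and 0.15, and the E. coli call was also lost without ACs replicate 2 (0.098), E. coli replicate 2 (0.09) or E. coli replicate 3 (0.11) and the call with both stimuli without ACs replicate 2 (0.061). In the IL-4 experiment Asns was at 12, 7.79 and 10.7 with ACs and 14.5, 5.27 and 10.3 with IL-4, which overlapped.

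Among the enzymes of serine synthesis and one-carbon metabolism, Psat1 and Shmt2 passed the test. Psat1, the phosphoserine aminotransferase (ENSMUSG00000024640.9, chromosome 19 from 15904678 to 15947337, minus strand), was at 49.6, 77.9 and 80.7 with ACs, 100, 67.9 and 73.9 with E. coli, 119, 173 and 197 with IFN-γ and 58.4, 35.4 and 55.2 with both. It rose with IFN-γ (log2 1.22, SE 0.26, adjusted p = 0.0017). With both stimuli its libraries overlapped those with ACs and were lower than with IFN-γ alone (log2 -1.69, SE 0.26, adjusted p = 0.00015). Across the libraries of the IL-4 experiment Psat1 was at 104, 116 and 177 with ACs and 292, 177 and 128 with IL-4 (log2 0.54, 95% interval -0.15 to 1.23, adjusted p = 0.62). The value of 128 belongs to a shallow library, and without replicate 3 of both groups the difference was log2 1.04 with an adjusted p of 0.011.

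Shmt2, the mitochondrial serine hydroxymethyltransferase that passes a carbon from serine to folate (ENSMUSG00000025403.5, chromosome 10 from 127517123 to 127522444, minus strand), was at 136, 119 and 101 with ACs. It was at 73.7, 79.3 and 78.3 with E. coli, 23.7, 88.3 and 34.9 with IFN-γ and 18.5, 55 and 19.3 with both, so that all 9 stimulated libraries were below the ACs libraries. The difference passed the test with IFN-γ (log2 -1.47, SE 0.40, adjusted p = 0.01) and with both stimuli (log2 -2.08, SE 0.40, adjusted p = 0.00043), but not with E. coli (log2 -0.61, adjusted p = 0.38). IFN-γ replicate 2 stood apart at 88.3, and without replicate 1, at 23.7, the IFN-γ difference was log2 -1.07 with an adjusted p of 0.066. Among the IL-4 experiment libraries Shmt2 was at 134, 162 and 209 with ACs and 103, 126 and 185 with IL-4, which overlapped.

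The remaining enzymes did not pass the test in any of the 4 comparisons. Mthfd2, the next mitochondrial folate enzyme, was at 14.7 to 20.6 with ACs and 22.9 to 26.2 with E. coli (log2 0.53, adjusted p = 0.42), and at 20.5 to 47.5 with IFN-γ (log2 0.74, adjusted p = 0.16). Pck2, the mitochondrial phosphoenolpyruvate carboxykinase, was at 11 to 31 in the Type 1 libraries. Phgdh, the first enzyme of serine synthesis, had 0 to 10 reads per library in both experiments and was tested in neither. Psph, the last, had 13 to 22 reads per ACs library in the Type 1 experiment and 1 to 8 per stimulated library, without overlap. It was too low to be tested there, and in the IL-4 experiment it was tested and did not pass.

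**Figure D3:**
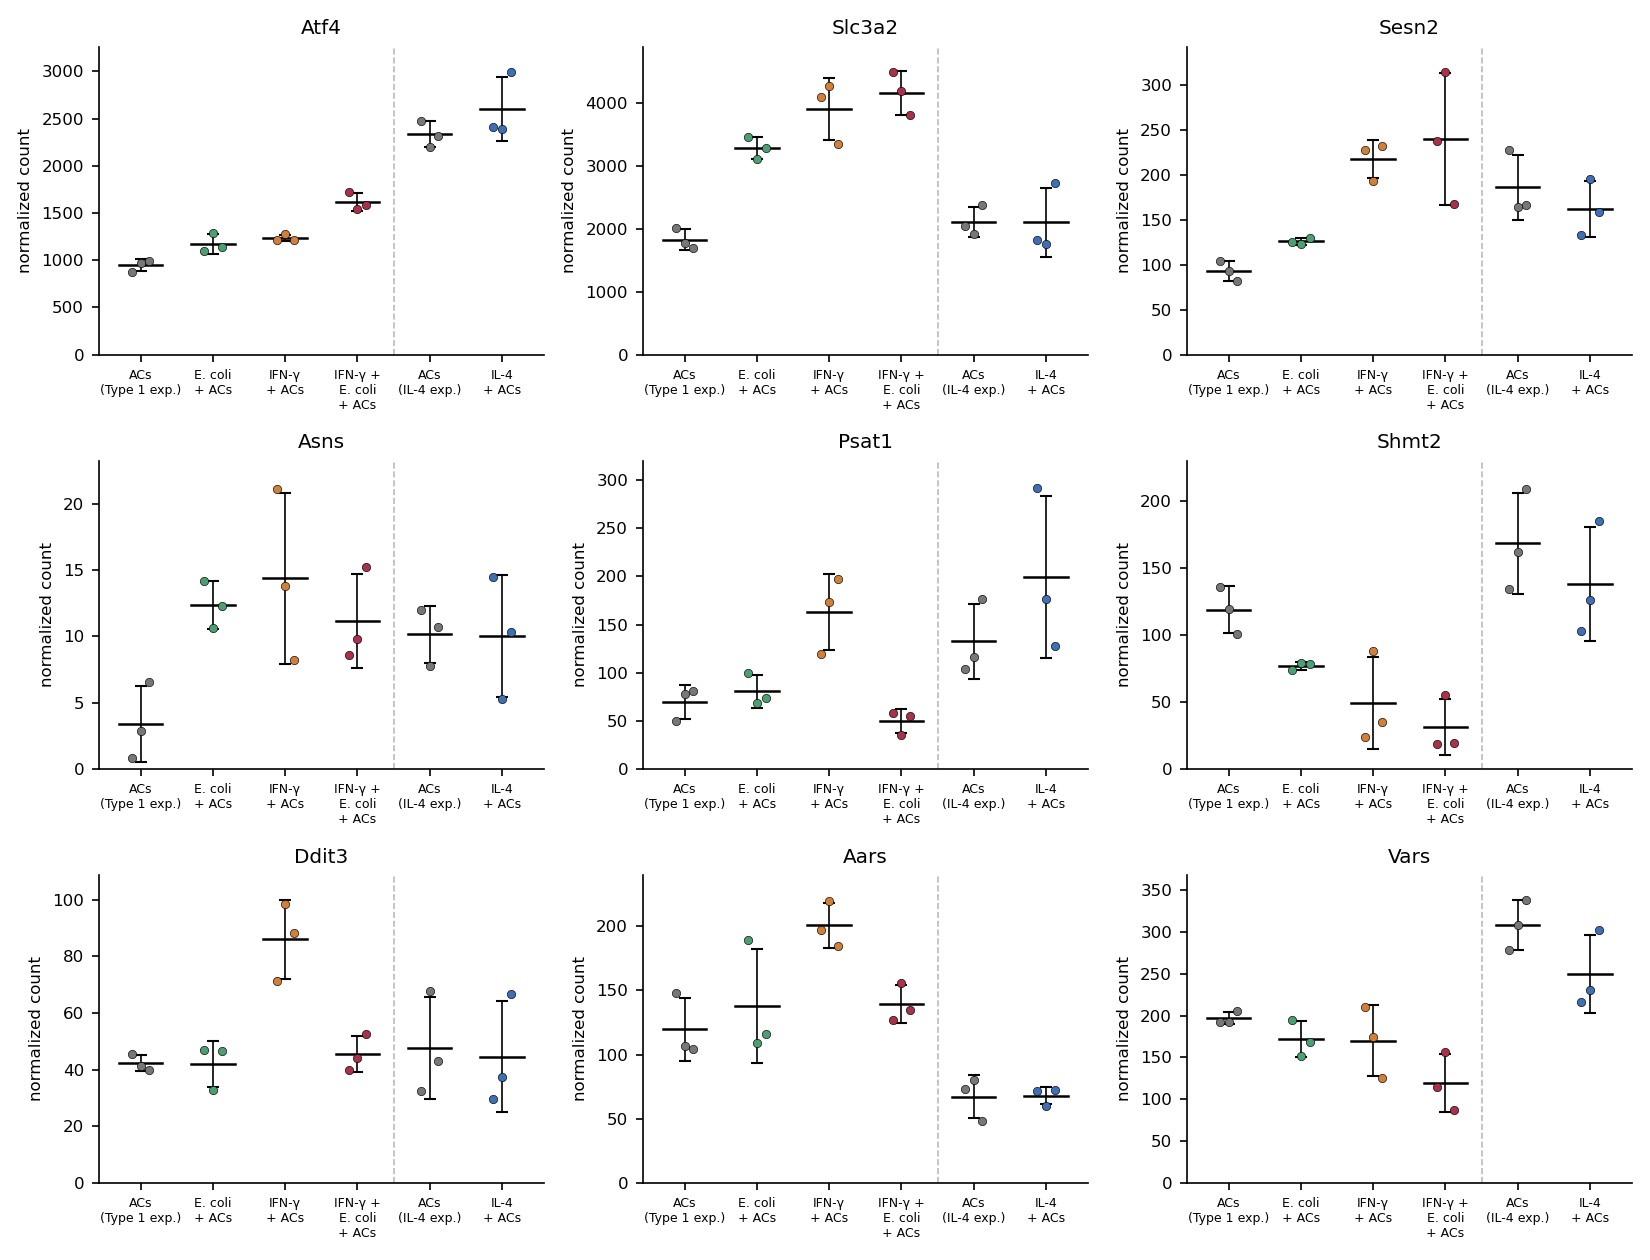
Normalized counts per library (points), group means (horizontal lines) and 1 SD (bars, n = 3) for the 9 members other than Wars that passed the test in at least 1 comparison with ACs, on linear axes that start at 0. The dashed line separates the experiments. All 9 stimulated Type 1 libraries lay above the ACs libraries for Atf4, Slc3a2, Sesn2 and Asns and below them for Shmt2, while Ddit3 stood out with IFN-γ alone.

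With IL-4, 0 of the 33 tested members passed in either direction in limma, beside 0.74% of all 10669 genes higher and 0.347% lower. At an unadjusted p under 0.05 in limma there was 1 member, Wars, beside 1030 of all 10669 genes. On whole reads edgeR and DESeq2 also called 0 members. There 1.19% of all genes were higher and 0.797% lower in edgeR, and 1.2% and 0.759% in DESeq2. The stimulus itself was visible in Chil3 and Retnla, IL-4 target genes, with log2 differences of 2.57 and 0.73 (adjusted p = 0.00043 and 0.02). With array weights, which count the noisier libraries less, Psat1 (log2 1.04) and Lars (log2 0.65) were called higher and Trib3 (log2 -0.82) lower. Without replicate 3 of both groups Psat1 (log2 1.04) was called higher and Sars (log2 -0.61) lower. In those fits 3.65% of all genes were higher and 3.34% lower with the weights, and 3.25% and 2.93% without replicate 3, so that 1 or 2 of 33 members in a direction is near the share of all genes.

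Whether the response to both stimuli equalled the sum of the single responses was asked with the interaction term of the 4 Type 1 groups. Of the 32 tested members, 4 departed from additivity on the log2 scale, beside 7.44% of all genes in either direction. Wars exceeded the sum by log2 1.39 (SE 0.24, adjusted p = 0.0015), and it was higher with both stimuli than with IFN-γ alone (log2 1.02, SE 0.17, adjusted p = 0.00034). Psat1 fell short of the sum by log2 -1.92 (SE 0.37, adjusted p = 0.0032) and Slc3a2 by log2 -0.75 (SE 0.16, adjusted p = 0.0075). Tars exceeded it by log2 0.77 (SE 0.23, adjusted p = 0.047), and this call was lost in 10 of the 12 fits without 1 library, with adjusted p from 0.052 to 0.12, and with the replicate number as a block in all Type 1 groups (0.055). A replicate block in the 2 IFN-γ groups alone was added after their same-numbered libraries were seen to deviate together. With it the 4 calls held (Tars at an adjusted p of 0.023), and 4.9% of all genes lay above and 6.58% below additivity. The pairwise differences among the stimulated groups gave 3 members between both stimuli and IFN-γ (14.6% of all genes), to which that block added Shmt2 as lower with both (log2 -0.61, adjusted p = 0.043), 4 between both stimuli and E. coli (19.4%) and 5 between IFN-γ and E. coli (16.6%). In the last 2 Wars had the largest difference, log2 3.50 and 2.48, and Shmt2 was lower with both stimuli than with E. coli (log2 -1.47, adjusted p = 0.012), a call lost without replicate 1 or 3 of the former (adjusted p = 0.058 and 0.052). Psat1 was higher with IFN-γ than with E. coli (log2 0.99, adjusted p = 0.0099), and this was lost without E. coli replicate 2 or IFN-γ replicate 3 (0.054 and 0.052).

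**Figure D4:**
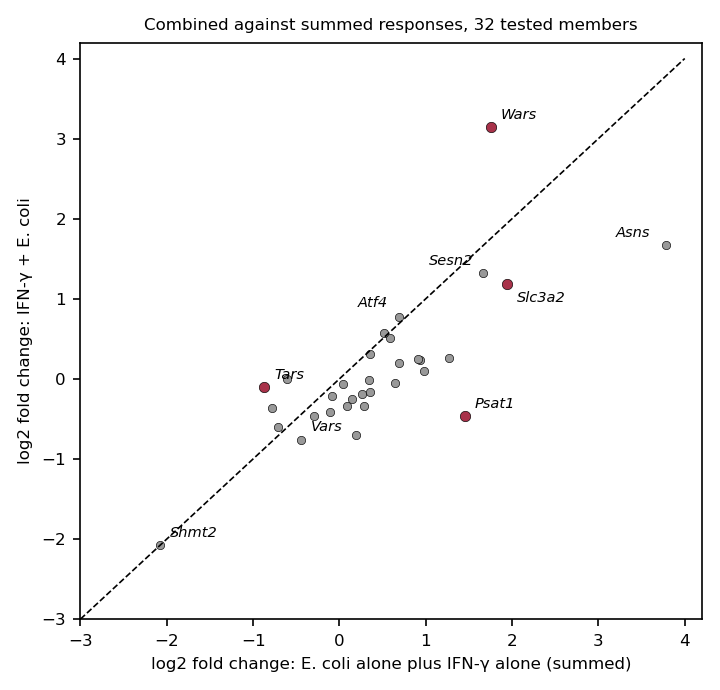
For each of the 32 tested members, the log2 fold change with both stimuli over ACs (vertical axis) against the sum of the log2 fold changes with E. coli and with IFN-γ (horizontal axis), which share the same ACs libraries. The dashed line marks equality. Dark red points passed the interaction test, with Wars and Tars above the line and Psat1 and Slc3a2 below it.

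The responses to IL-4 and to the Type 1 stimuli were compared as differences of differences over all 18 libraries. Between IL-4 and IFN-γ, 4 of 32 members differed, beside 14.3% of all genes. The IL-4 response was lower for Wars (log2 -2.91), Sesn2 (log2 -1.42) and Slc3a2 (log2 -1.12) and higher for Tars (log2 0.93). Between IL-4 and E. coli 1 member differed, beside 4.43% of all genes, namely Slc3a2 (log2 -0.88, adjusted p = 0.014), which without IL-4 replicate 2 was log2 -0.76 with an adjusted p of 0.052. Between IL-4 and both stimuli 5 differed, beside 20.4% of all genes, with Wars (log2 -3.93), Sesn2 (log2 -1.51), Slc3a2 (log2 -1.22) and Atf4 (log2 -0.62) lower and Shmt2 (log2 1.78) higher in the IL-4 response. The Atf4 call fell under 1.5-fold, at log2 -0.56 to -0.57, without replicate 1 of the Type 1 ACs, both-stimuli, IL-4 or IL-4 experiment ACs group or IL-4 replicate 2, and at log2 -0.49 with a common upper quartile. The Shmt2 call was lost, with adjusted p from 0.052 to 0.077, without replicate 1 or 2 of the Type 1 ACs group, 1 or 3 of the both-stimuli group, IL-4 replicate 3 or replicate 1 of the ACs group beside it. The experiment and the kind of stimulus cannot be told apart in these contrasts. The ACs libraries themselves held Atf4 at 947 ± 65.9 in the Type 1 experiment and 2334 ± 138 in the other (SD, n = 3), with Sesn2 at 92.9 ± 11.3 and 186 ± 36.2.

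Genes around the pathway were read from lists chosen for their roles, with earlier results known. Of 17 mitochondrial synthetases, which charge tRNA in the organelle, 13 were tested. None passed with E. coli or IL-4, 3 were lower with IFN-γ (Mars2, Ears2 and Cars2, log2 -2.70, -1.74 and -0.86) and Cars2 was lower with both stimuli (log2 -1.02), where 9.96% and 17.2% of all genes were lower. Ears2 and Mars2 reached the mean of 10 largely through the ACs group (22.8 to 26.3 and 15.4 to 20.4) and could hardly have been called higher. None of the 3 scaffold genes of the multisynthetase complex passed against ACs. Among 13 genes for eIF2 kinases, phosphatase subunits and eIF2B, 12 were tested. Impact, an inhibitor of GCN2, was higher with IFN-γ (log2 0.79, adjusted p = 0.021), and no other passed in any of the 4 comparisons. That is 1 of 12 beside 11.4% of all genes higher with IFN-γ, so it is near the share of all genes. With E. coli 5.05% of all genes were higher and 5.25% lower, with both stimuli 14.7% and 17.2%, and with IL-4 0.74% and 0.347%.

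Further ATF4 targets outside the 36 genes were read in the same way, and their counts stand beside the shares of all genes given above, with E. coli 5.05% higher and 5.25% lower, with IFN-γ 11.4% and 9.96%, and with both stimuli 14.7% and 17.2%. Of 5 tested transport genes, 1 was higher with E. coli, 2 with IFN-γ and 3 with both, while 1 was lower in each IFN-γ condition. Slc7a11, the cystine transporter that pairs with Slc3a2, was at 142 ± 11.7 with ACs, 583 ± 35.5 with E. coli, 847 ± 92.5 with IFN-γ and 1419 ± 351 with both (SD, n = 3). Its log2 fold changes were 2.03, 2.57 and 3.29, each past the test. Slc6a9, a glycine transporter, was higher in both IFN-γ conditions (log2 2.94 and 3.82), but at 0 to 4.69 with ACs it was tested only through its stimulated groups and could hardly have been called lower. Slc38a2 was higher with both stimuli (log2 0.79), and the glutamine transporter gene Slc1a5 was lower in both IFN-γ conditions (log2 -1.13 and -1.33).

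Of 6 tested targets in metabolism and translation, 0 were higher and 2 lower with E. coli, 5 higher and 0 lower with IFN-γ, and 3 higher and 1 lower with both. Mthfd1l, a mitochondrial folate enzyme that acts after Shmt2 and Mthfd2, was higher with IFN-γ (log2 1.88) and with both stimuli (log2 3.15), where Shmt2 was lower. Gtpbp2 (log2 0.72 and 1.21) and Eif4ebp1 (log2 0.78 and 0.91) were higher in the same 2 conditions. Gpt2, an alanine aminotransferase, was lower with E. coli (log2 -1.79) and with both (log2 -0.94). Its value with IFN-γ, log2 1.46, passed as higher and is given outside the naming rule, after its values were seen. Got1, an aspartate aminotransferase, was lower with E. coli (log2 -0.69) and higher with IFN-γ (log2 1.26).

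Of 6 tested regulators and secreted factors, 2 were higher and 1 lower with E. coli, and 3 were higher and 1 lower with IFN-γ and likewise with both. Atf3, a stress-induced factor of the same family, was at 62.4 ± 11 with ACs, 154 ± 34 with E. coli, 1586 ± 198 with IFN-γ and 1192 ± 217 with both (SD, n = 3), with log2 fold changes of 1.29, 4.65 and 4.23. Gdf15, a stress cytokine, had log2 fold changes of 2.21, 3.57 and 2.44, and the same limit holds for it, at 3.26 to 5.63 with ACs. Jdp2 was higher in both IFN-γ conditions (log2 1.21 and 1.15), Gadd45a was lower there (log2 -1.57 and -1.73), and Ddit4 was lower with E. coli (log2 -0.81). With IL-4 no gene of these 3 lists passed the test.

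The XBP1 and ATF6 branches of the unfolded protein response were read for comparison. Of 8 tested target genes, 0 were higher and 1 lower with E. coli, beside 5.05% and 5.25% of all genes. With IFN-γ 1 was higher and 0 lower (11.4% and 9.96% of all genes), and with both 0 were higher and 2 lower (14.7% and 17.2%). None passed with IL-4 (0.74% and 0.347%). Creld2 was higher with IFN-γ (log2 1.22), Sdf2l1 was lower with E. coli and with both stimuli (log2 -0.79 and -0.88), and Herpud1 was lower with both (log2 -0.73).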

How the data were processed

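The 18 eosinophil libraries were made by bulk CEL-Seq2, a 3′-end method. The deposited values are a signal for each gene, its read count over the DESeq2 size factor of that library. The submitters' processing notes name TopHat2 2.1.0, HTSeq 0.6.1 and DESeq2 1.26.0, while the paper's methods describe 2 pipelines and do not say which made this table. The genome was GRCm38. Dividing by the step of each library gave whole reads for 100% of values (tolerance 0.1 reads), 779421 to 7782072 per library. Intervals and limits from reads cover counting error only. Identifiers matched a symbol for 54409 of 54446 genes.

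The members and gene lists were chosen with earlier results of these data known. Limma 3.58.1 in R 4.3.3 (lmFit, eBayes with a trend) was fitted to log2(normalized count + 1) for genes with a mean of at least 10, on the 12 Type 1 libraries, the 6 IL-4 libraries, or all 18 for differences between responses, with Benjamini-Hochberg adjustment over all genes tested. Standard errors and 95% intervals come from that fit. The fit was tested on simulated data. Same-numbered IFN-γ and both-stimuli libraries deviated together (correlations 0.169, 0.184 and 0.245), so a replicate block within these 2 groups was added after seeing the data. The labels do not say what a number stands for. Values in every library are given for members past the test in at least 1 comparison with ACs, and for Atf4, Atf5, Ddit3, Asns, Chac1 and Trib3 regardless. Of each context list, at most the 4 genes with the smallest adjusted p per comparison are named. RefSeq promoter windows were searched on both strands. The alternatives were another pseudocount, filters, scaling, weights, the replicate block, edgeR 4.0.16 and DESeq2 1.42.0 on whole reads, all libraries in 1 fit, no fold limit, and each library left out. Python 3.11.15, pandas 2.3.3, scipy 1.17.1 and matplotlib were used for tables and figures.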

Additional observations from a re-analysis of the deposited data

Results flagged for a closer look

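Members whose response differed between conditions by a test of the difference itself are listed here with their values. In the interaction of IFN-γ and E. coli these were Wars (log2 1.39), Tars (0.77), Psat1 (-1.92) and Slc3a2 (-0.75). For the IL-4 response minus the IFN-γ response they were Wars (log2 -2.91), Sesn2 (-1.42), Slc3a2 (-1.12) and Tars (0.93). For the IL-4 response minus the E. coli response it was Slc3a2 (log2 -0.88), and for the IL-4 response minus the IFN-γ + E. coli response Wars (log2 -3.93), Sesn2 (-1.51), Slc3a2 (-1.22), Atf4 (-0.62) and Shmt2 (1.78). The IL-4 and Type 1 stimuli were given in separate experiments, so stimulus and experiment cannot be told apart. Groups of 3 libraries are too small for a search for single outlying values.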

How the results depend on the processing

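Taking each call of a single member under each alternative as 1 value, all 591 values kept the direction of the call and 538 passed the test. Some of these outcomes were fixed in advance. The run without a fold limit used the main fit, so calls against ACs had to pass there. A replicate block leaves the log2 differences of equal groups unchanged, so the direction could not change in those runs. Those for Wars and Sesn2 passed in every alternative run, as did those for Slc3a2 apart from 1 in the IL-4 contrast with E. coli.

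The counts of members moved as follows. With E. coli + ACs 1 member, in place of 2, was higher with a pseudocount of 5, with all genes with any value above 0, with a mean of at least 50 and with the replicate block. With IFN-γ + ACs 2, in place of 1, were lower with a common upper quartile or no fold threshold, the added one being Tars. With both stimuli 4, in place of 2, were lower with all genes with any value above 0, the added ones being Psph and Chac1. With IL-4, in place of 0, array weights gave 2 higher and 1 lower, and leaving out replicate 3 of both groups 1 and 1. A common upper quartile gave 5, in place of 2, lower with both stimuli than with E. coli + ACs, and 2, in place of 1, higher in the IL-4 response minus that to IFN-γ or to both stimuli. That scaling moved the median of all genes with both stimuli from -0.05 to -0.18, and 1155 genes were then higher and 2200 lower, in place of 1494 and 1746.

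Same-numbered libraries did not deviate together in general (mean correlation 0.005 and 0.041 in the 2 experiments). Those of the IFN-γ group and of the group with both stimuli did (0.169, 0.184 and 0.245), and the labels do not say whether they are paired. The fit with the replicate block gave 1, in place of 2, members above additivity and 2, in place of 1, higher in the IL-4 response minus that to IFN-γ, and, beside the E. coli count above, changed no other count of members by over 1.5 times. A block in those 2 groups alone, chosen after seeing the data, gave 3 members, in place of 2, lower with both stimuli than with IFN-γ and changed no other call of a member. Over all genes it raised the calls of non-additivity from 321 and 435 to 498 and 669.

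With 1 library, or replicate 3 of both groups of the IL-4 experiment, left out, members higher ranged from 1 to 2 with E. coli, 6 to 8 with IFN-γ, 4 to 6 with both and 0 to 1 with IL-4, and members lower from 0 to 2 with IFN-γ, 2 to 3 with both and 0 to 1 with IL-4. The ranges were 1 to 4 lower with both stimuli than with IFN-γ, 1 to 2 lower with both than with E. coli, 0 to 1 lower with IFN-γ than with E. coli, and 1 to 2 above additivity. For the IL-4 response they were 1 to 2 higher and 3 to 6 lower against IFN-γ, 0 to 1 lower against E. coli, and 0 to 2 higher against both. The causes were not tested. Depth limited Asns, Chac1, Trib3, Phgdh, Psph and Slc7a5, and every low value in the 2 shallow libraries.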
